A study of Caenorhabditis elegans with 2 samples.

Results

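The genes of the DREAM complex were examined as binding targets of one of its own subunits, the pocket protein LIN-35. The 8 genes were taken by name: *lin-35*, *efl-1*, *dpl-1*, *lin-9*, *lin-37*, *lin-52*, *lin-53* and *lin-54*, out of 19985 protein-coding genes in the Ensembl release 115 annotation of WBcel235 (the same sequence as ce11). For each gene, every deposited region with its summit within 1000 bp of the gene start was taken. This gave 5 thresholded peaks, 10 pooled candidate regions, 10 regions in replicate 2 and 9 in replicate 3. Young adults of strain YL402, whole, of both sexes and of unknown age, were used for chromatin immunoprecipitation of LIN-35 and sequencing of the recovered DNA. The labels give the target both as lin-35 and as eGFP-lin-35. The worms carried the allele unc119(ed3)III and the integrated transgene vrIs56, in which the *pie-1* promoter (pPIE-1), active in the germline, drives LIN-35 joined to GFP and FLAG ahead of the *lin-35* 3′UTR, beside a rescuing *unc-119* (+) copy. The labels list no allele of the endogenous *lin-35* gene. The 2 libraries, biological replicates 2 and 3, are the only group, so no conditions were compared and the spread between them is the only error available.

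DREAM is a repressor of cell cycle genes that is conserved from worms to mammals. It joins a pocket protein to an E2F-DP pair and to the MuvB core, and it can touch DNA through the E2F-DP pair, which reads E2F sites, and through LIN-54, which reads the cell cycle genes homology region (CHR). In *Caenorhabditis elegans* LIN-35 is the pocket protein, EFL-1 the E2F protein and DPL-1 its DP partner. LIN-9, LIN-37, LIN-52, LIN-53 and LIN-54 form the MuvB core, of which LIN-53 is the histone-binding subunit (the RbAp48 homolog) that other chromatin complexes share. The genes belong to the synMuv B class, named for the multiple vulvae that they cause when lost together with a gene of another synMuv class.

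A total of 5 of the 8 genes had a thresholded LIN-35 peak within 1000 bp of the start, and are called bound here. Over all protein-coding genes, 505 of 19985 (2.53%) had one. The authors' signal value ran from 42.2 to 89.1 at the 5 peaks, while the 396 thresholded peaks had a median of 44.8. The bound genes encode the pocket protein, the E2F protein, the histone-binding subunit, the CHR reader and the core subunit LIN-9. Those without a thresholded peak encode the DP partner (*dpl-1*) and the small core subunits LIN-37 and LIN-52. With a limit of 250 bp, or with each peak given only to its nearest gene, 3 genes stayed bound, and *lin-53* and *lin-54* did not. No test of the list was made, because the genes were chosen with results of these data known. Weak candidate regions were common at gene starts in general. A pooled candidate region of any strength lay near 7 of the 8 genes and near 53% of all genes, and 6 of the 8 genes had a region in both replicate lists, against 24.1% of all genes.

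**Figure D1:**
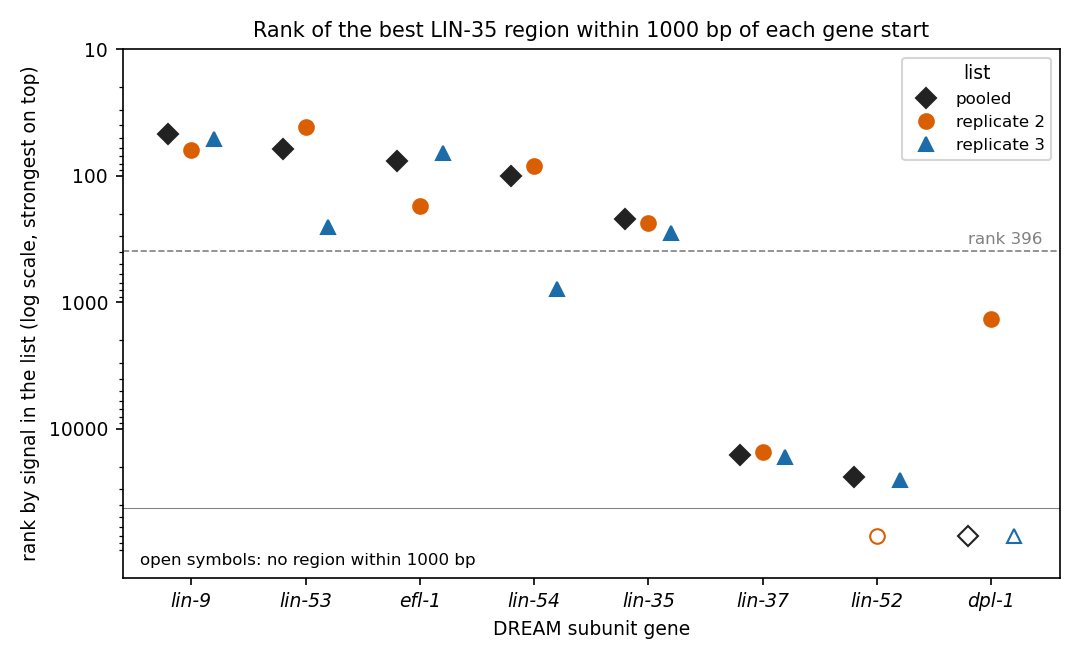
Rank by signal (log scale, strongest on top) of the best LIN-35 region within 1000 bp of each DREAM subunit gene, in the pooled list and in each replicate list; open symbols below the line mark lists with no region there. The 5 genes on the left ranked between 41 and 788 in every list, whereas *lin-37* and *lin-52* ranked between 15101 and 25242 where they had a region, and *dpl-1* had regions in replicate 2 only.

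The MuvB core genes held both the strongest and the weakest values. *lin-9* (WBGene00002998, chromosome III, 8900237 to 8904131, minus strand) encodes a conserved core subunit. Its peak spanned 8904165 to 8904238 on chromosome III, in intergenic sequence. From the start of the gene to the summit was 88 bp. The signal was 44.1 in replicate 2 (rank 62), 45.4 in replicate 3 (rank 51) and 89.1 in the pooled list (rank 47). It thus ranked alike in both libraries, and 46 genes had a better region in the pooled list. At 74 bp it was among the 3 narrowest thresholded peaks, where 333 of 396 were 296 bp wide, and the replicate regions at the same place had the usual widths of 310 and 270 bp.

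*lin-53* (WBGene00003036, chromosome I, 9618196 to 9619760, minus strand) had its peak at 9619869 to 9620164, also intergenic, with the summit 257 bp upstream. The signal was 54.8 in replicate 2 (rank 41), 20.6 in replicate 3 (rank 252) and 83.6 in the pooled list (rank 61). The gene thus had the highest rank of all 8 genes in replicate 2 and the third in replicate 3. A second, weaker region lay in a coding exon 543 bp inside the gene in replicate 2 (rank 1067) and 586 bp inside it in the pooled list (rank 18831), and replicate 3 had none there.

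*lin-54* (WBGene00003037, chromosome IV, 13241044 to 13243401, plus strand) encodes the DNA-binding subunit of the core. Its peak spanned 13240571 to 13240866, in intergenic sequence, and its highest point was 325 bp before the gene. The signal was 39.3 in replicate 2 (rank 83), 14.4 in replicate 3 (rank 788) and 64.3 in the pooled list (rank 101). It was the only one of the 5 bound genes outside the 396 highest ranks of a replicate, and no region lay inside the gene in any list.

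The *lin-37* and *lin-52* starts had only faint regions. Near *lin-37* (WBGene00003022, chromosome III, 7070890 to 7072552, minus strand), the best region had a signal of 2.84 in replicate 2 (rank 15101), 6.33 in replicate 3 (rank 16679) and 8.83 in the pooled list (rank 15936). Its summits lay 751 to 882 bp upstream, inside the neighbouring gene *ZK418.5*. Near *lin-52* (WBGene00003035, chromosome III, 9824083 to 9824750, minus strand), the best pooled region had a signal of 7.27 (rank 23871). It lay in a coding exon, 454 bp inside the gene. The best replicate 3 region had a signal of 5.16 (rank 25242) and lay 551 bp inside the gene, also in a coding exon. Replicate 2 had no region within 1000 bp of the *lin-52* start. Better regions than those of *lin-37* and *lin-52* were found at 6865 and 9114 other genes.

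Of the genes of the E2F-DP pair, *efl-1* was bound and *dpl-1* had no thresholded peak. *efl-1* (WBGene00001161, chromosome V, 16958590 to 16965675, minus strand) had an intergenic peak at 16965698 to 16965993, the summit being 171 bp before the gene. The signal was 24.6 in replicate 2 (rank 173), 39.9 in replicate 3 (rank 66) and 74.4 in the pooled list (rank 77). *dpl-1* (WBGene00001061, chromosome II, 9169910 to 9172565, plus strand) had no pooled or replicate 3 region within 1000 bp of its start. In replicate 2 it had a region of signal 9.50 (rank 1353) in an intron, 757 bp inside the gene, and a fainter one of signal 3.49 (rank 11893) in the coding exon 141 bp inside. The *dpl-1* gene lies inside *T23G7.2*, which runs on the opposite strand, so these regions cannot be assigned to one of the genes.

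The *lin-35* gene itself was bound at its endogenous start, more weakly than the other bound genes in the pooled list. *lin-35* (WBGene00003020, chromosome I, 5807709 to 5815637, plus strand) had a peak at 5807414 to 5807709, in intergenic sequence, with the summit 147 bp upstream. The signal was 20.6 in replicate 2 (rank 234), 19.7 in replicate 3 (rank 281) and 42.2 in the pooled list (rank 219). Its ranks in the libraries were close to each other. The transgene also carries *lin-35* sequence, and the labels do not say which parts of it are genomic. Over the 7929 bp of the gene, 2 pooled summits were found, which is 0.252 per kb, compared with 0.303 per kb over all protein-coding genes and 0.29 per kb over genes of 5 to 12 kb. Each replicate list also held 2 summits inside the gene, and thus again 0.252 per kb. The gene *C32F10.4* lies inside *lin-35* on the opposite strand, from 712 to 2293 bp after the *lin-35* start. Both replicate 2 summits (712 and 1619 bp) and the pooled summit at 1791 bp fell in it. These cannot be assigned to one of the genes, and the summits lay at different places in the lists. Genes of 5 to 12 kb had 0.195 per kb in replicate 2 and 0.289 per kb in replicate 3. *lin-35* was thus above them in replicate 2 and below them in replicate 3, but each value rests on 2 summits. The replicate lists also differ in length, with 20291 and 30000 regions. The best pooled region inside *lin-35* had a signal of 14.8 (rank 3113), 311 bp from the start in an intron. Replicate 3 had a faint region there (rank 23783, 282 bp from the start), and replicate 2 had none.

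The order of the 5 bound genes by rank was only partly shared by the libraries. Of the 10 pairs that they form, 6 had the same order in both replicates. *lin-9* ranked above *efl-1*, *lin-54* and *lin-35* in both, *efl-1* and *lin-53* ranked above *lin-35*, and *lin-53* ranked above *lin-54*. The order of *lin-9* and *lin-53*, of *lin-53* and *efl-1*, of *efl-1* and *lin-54*, and of *lin-54* and *lin-35* changed between replicates, so neighbours in the pooled order could not be told apart.

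Ranks in the 2 libraries differed 1.20-fold at *lin-35*, 1.22-fold at *lin-9*, 2.62-fold at *efl-1*, 6.15-fold at *lin-53* and 9.49-fold at *lin-54*. Among the 357 nuclear thresholded peaks with a region in both replicate lists the median was 2.62-fold, and 21.0% of them differed at least as much as the *lin-54* peak. *lin-53* and *lin-54* ranked higher in replicate 2 and *efl-1* in replicate 3. Summit positions differed between libraries by 13 bp at *lin-54*, 28 bp at *lin-53*, 30 bp at *lin-9* and 48 bp at *lin-35*, where the median over the 357 peaks was 33 bp. At *efl-1* they were 99 bp apart, and 8.40% of the 357 peaks were as far apart or farther.

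**Figure D2:**
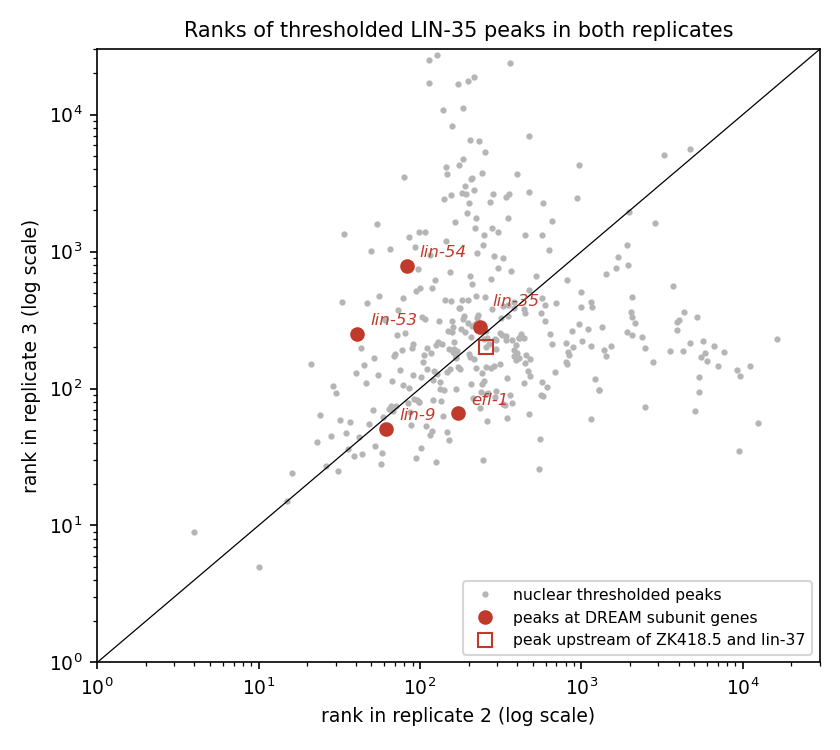
Rank in replicate 2 (horizontal, log scale) against rank in replicate 3 (vertical, log scale) for the nuclear thresholded peaks with a region in both lists (grey), the peaks at DREAM subunit genes (red circles) and the peak upstream of *ZK418.5* and *lin-37* (red square); the line marks equal ranks. *lin-9* and *lin-35* lie near the line, and *lin-53* and *lin-54* lie above it, with ranks of 41 and 83 in replicate 2 and 252 and 788 in replicate 3.

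The thresholded peaks whose pair of replicate ranks came closest to those of the bound subunit genes were found by the distance in log10 ranks over the 2 libraries, among nuclear peaks within 1000 bp of the start of a gene other than the 8. Peaks without such a start were left out, among them one closer to *lin-54* in rank than the peak named here. The peak nearest to that of *lin-9* was at *pdhk-2* (ranks 63 and 52 in replicates 2 and 3), and the one nearest to *lin-35* was at *puf-11* (227 and 267), which encodes a PUF family RNA-binding protein. *efl-1* was matched by the *ZK795.3* peak (138 and 63), *lin-53* by the *pcs-1* peak (43 and 197) and *lin-54* by the *gyg-2* peak (93 and 1088). With only 2 values per peak, such a match is loose.

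The 5 bound genes shared an arrangement that the 3 others lacked. Each bound gene had its nearest upstream protein-coding neighbour on the opposite strand, pointing away from it: *vps-51* 417 bp from the *lin-35* start, *nra-2* 466 bp from *lin-53*, *rpl-12* 392 bp from *lin-54*, *fbxa-90* 1138 bp from *efl-1* and *unc-32* 1483 bp from *lin-9*. In contrast, *lin-37* followed *ZK418.5* on the same strand after 60 bp, *lin-52* followed *ZK632.9* on the same strand after 126 bp, and the *dpl-1* start lay inside *T23G7.2*. Over all genes, a thresholded peak lay within 1000 bp of the start at 3.85% of the 8420 genes with an opposite-strand neighbour, 1.52% of the 10165 genes with a same-strand neighbour and 1.79% of the 1394 genes whose start lay inside another gene. An opposite-strand neighbour was found at 42.1% of all genes. A peak near the starts of both neighbours counted for each of them, so the shares with a peak are not independent of the arrangement. The pattern at the subunit genes was noticed after the values were seen.

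Where the start of the neighbour was also near the summit, the peak cannot be assigned to a single gene. The *lin-54* summit lay 68 bp upstream of *rpl-12*, a large ribosomal subunit gene, and thus nearer to it than to *lin-54*. The *lin-53* summit lay 210 bp upstream of *nra-2* and 257 bp upstream of *lin-53*. At *lin-35*, the summit was nearer to *lin-35* (147 bp) than to *vps-51* (271 bp), which encodes a vesicle tethering protein. The *fbxa-90* start was 968 bp from the *efl-1* summit, and no other gene start was within 1000 bp of the *lin-9* summit.

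A strong peak lay outside the limit of 1000 bp at *lin-37*, beyond *ZK418.5*. It spanned 7074006 to 7074301 on chromosome III, with its summit 1602 bp upstream of *lin-37* and 303 bp upstream of *ZK418.5*, the gene that precedes *lin-37*. The signal was 19.7 in replicate 2 (rank 256), 22.7 in replicate 3 (rank 202) and 45.2 in the pooled and thresholded lists (rank 195). The summits in all 4 lists lay within 2 bp of each other. The other regions between 1000 and 2000 bp from a subunit gene start were weak, with ranks of 3967 or lower, and the farthest ones inside the limit were at 919 bp (*lin-9*, replicate 3, rank 20477) and 882 bp (*lin-37*, replicate 2, rank 15101).

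Genes that follow each other closely on the same strand can be transcribed together from one promoter in *C. elegans*, as operons. Whether *ZK418.5* and *lin-37* form one was not examined here. Among 2481 genes that follow a same-strand gene within 300 bp, 2.18% had a thresholded peak within 1000 bp of their own start and 6.13% within 1000 bp of the start of the first gene in the run. With first starts in place of own starts, 6 of the 8 subunit genes were bound, compared with 3.02% of all genes. *lin-52* was not among them: the only region within 1000 bp of the *ZK632.9* start was the pooled region at rank 29905. The gene *rba-1*, a close relative of *lin-53*, follows *lin-53* on the same strand after 88 bp and lay 1910 bp from the *lin-53* summit.

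**Figure D3:**
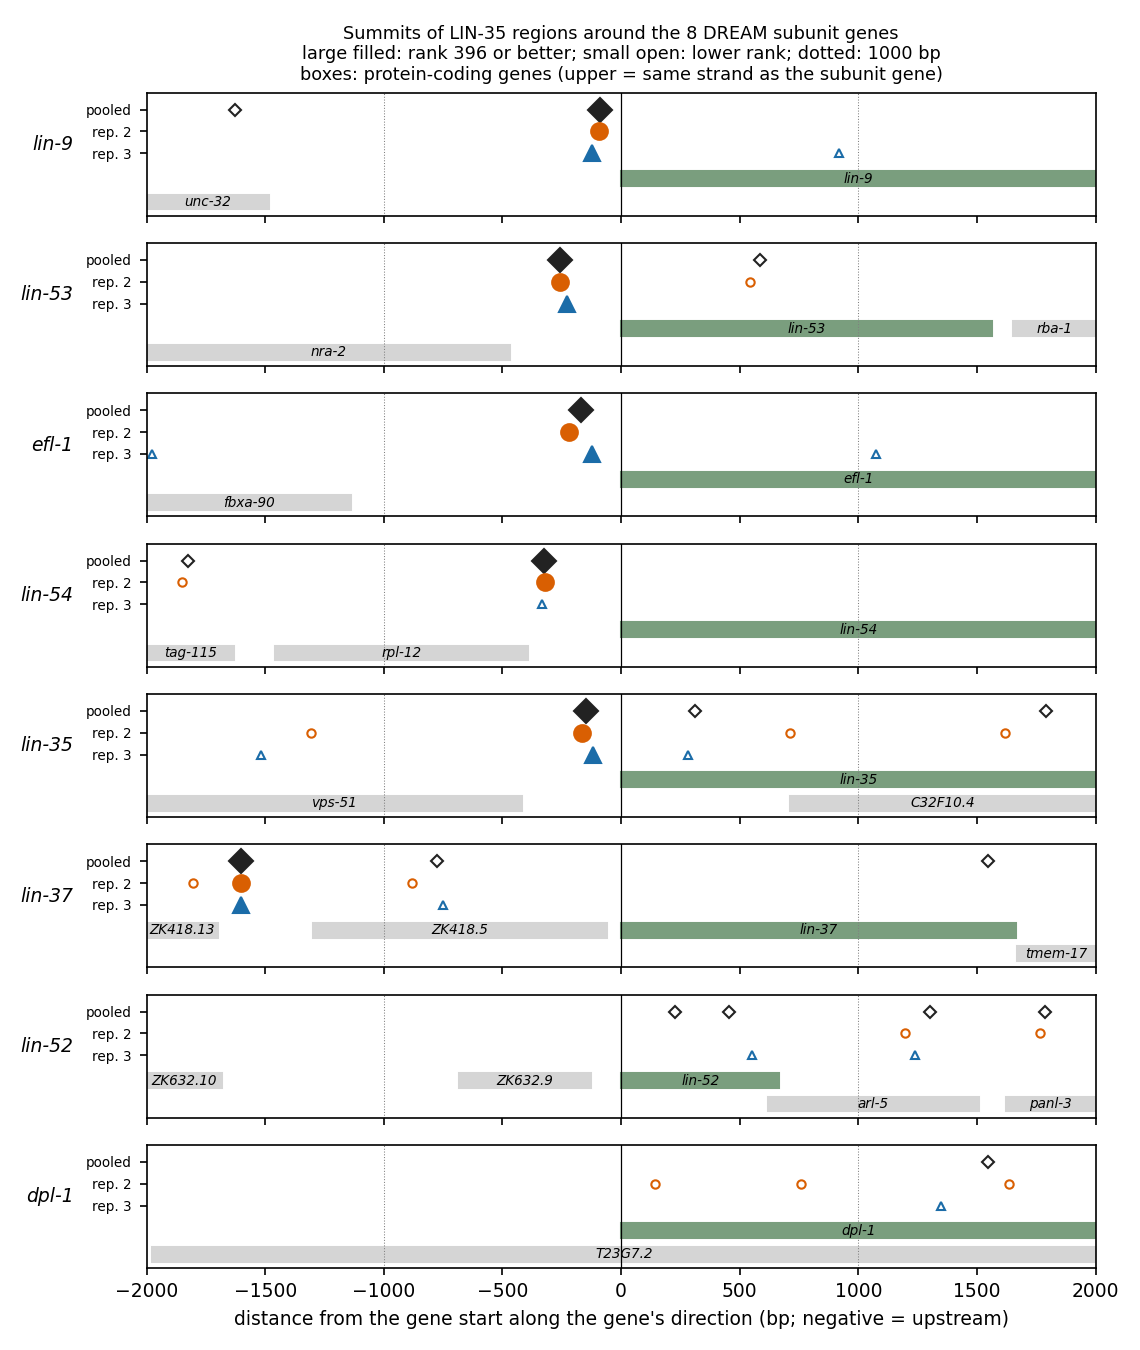
Summits of LIN-35 regions within 2000 bp of the start of each DREAM subunit gene, along the direction of the gene (horizontal, bp), in the pooled list (diamonds), replicate 2 (circles) and replicate 3 (triangles); large filled symbols rank 396 or better in their list, and boxes are protein-coding genes, on the upper line when on the strand of the subunit gene. The strong pooled summits lie 88 to 325 bp upstream of the bound genes, and that near *lin-37* lies 1602 bp upstream, beyond *ZK418.5*.

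The letters under the summits show how differently the E2F and CHR motifs are placed at the bound genes. An E2F match was any of the 7-letter words TTCCCGC, or TTCGCGC, or TTGCCGC, or TTGGCGC, and a CHR match was TTTGAA or TTCGAA, on either strand and with overlaps counted. Stretches of 30 bases from the RefSeq genome sequence of WBcel235 are given 5′ to 3′ on the strand of the gene, with the matches in capitals. They are shown for the strongest peak, for the bound E2F and CHR-reader genes and for the peak upstream of *ZK418.5* and *lin-37*. At *lin-9* and at *ZK418.5* an inverted CHR match precedes the E2F match at close range, whereas at *efl-1* and *lin-54* the matches stand apart.
lin-9, chrIII:8904199-8904228, 9 bp before to 20 bp after the summit: cgccatTTCAAAgtttttTTCGCGCgcgcg
ZK418.5 and lin-37, chrIII:7074176-7074205, 51 to 22 bp before the summit: aagtcctaTTCAAAcTTCGCGCgtaaatgg
efl-1, chrV:16965886-16965915, 69 to 40 bp before the summit: aagcgaaactttTTCCCGCggaaatttgag
efl-1, chrV:16965766-16965795, 51 to 80 bp after the summit: tttggaggggaaTTCAAAttgatttctctt
efl-1, chrV:16965969-16965998, 152 to 123 bp before the summit: actttttttgtcTTCAAATTCAAAtttccc
lin-54, chrIV:13240614-13240643, 105 to 76 bp before the summit: gtcgcgaggacTTGGCGCcggcgaattgac
lin-54, chrIV:13240685-13240714, 34 to 5 bp before the summit: tcgatgtcaattTTCAAAcaacattaactg
lin-54, chrIV:13240745-13240774, 26 to 55 bp after the summit: caaatttcggcGCGCGAAacaattttttaa

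At *lin-9* the CHR match covered the summit and the E2F match began 9 bp after it, with 6 bases between them. At the peak upstream of *ZK418.5* and *lin-37* the same pair stood 30 to 43 bp before the summit with 1 base between its members. Among the 146 nuclear thresholded peaks with both motifs within 100 bp of the summit, the smallest gap had a median of 9 bases, with quartiles of 3.25 and 48.8. An inverted CHR match at most 12 bases before an E2F match was found at 42 of the 376 nuclear thresholded peaks (11.2%) and at 65 of 11464 other pooled regions near gene starts (0.567%). The forward orientation before the E2F match was about as frequent, at 47 peaks (12.5%). The orientation seen at *lin-9* and *ZK418.5* thus does not stand out (TTCGAA reads the same on both strands and counts in both). With the CHR match after the E2F match, each orientation was found at 17 peaks (4.52%). Among the other pooled regions, that order was found at 0.419% (inverted) and 0.349% (forward). At *efl-1* the nearest pair within 100 bp was 113 bases apart, and at *lin-54* 53 bases. Just outside the window at *efl-1*, another CHR match lay 106 to 111 bp before the summit, nearer to the E2F match than the one inside. A tandem of CHR matches lay farther out, from 129 to 140 bp before the summit.

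An E2F match lay within 100 bp of the best pooled summit at *lin-9*, *efl-1* and *lin-54*, which is 3 of the 7 genes with a pooled region. The motif was present at 196 of 376 nuclear thresholded peaks (52.1%), at 7.81% of the other pooled regions within 1000 bp of a gene start, and in 9.20% of the 300-base windows from 250 bases before to 50 bases after the start of all nuclear protein-coding genes. At *lin-53* the nearest E2F match lay 114 to 120 bp from the summit on the side of *lin-53*, just outside the window. A CHR match lay within 100 bp at *lin-9*, *lin-53*, *efl-1*, *lin-54* and, at its faint region, *lin-52*. This short motif is common, at 73.9% of nuclear thresholded peaks, 52.2% of the other pooled regions and 68.9% of the promoter windows.

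The *lin-35* peak had neither motif within 100 bp of its summit, nor did the 300-base promoter window of *lin-35* hold one. Neither was found at 48 of the 376 nuclear thresholded peaks (12.8%) and at 44.3% of the other pooled regions. With a looser word of the form SSCGCS (S is C or G), both *lin-35* and *lin-53* gained a match. This word was present at 73.1% of the nuclear thresholded peaks, 17.5% of the other pooled regions and 21.8% of the promoter windows. The *lin-52* promoter window also held neither motif, whereas those of *dpl-1* and *lin-37* held a CHR match and no E2F match. The same was true of the bound gene *lin-54*, whose E2F matches near the summit lay outside its promoter window. GC content in the 201 bases around the summit was 37.3% at *lin-35*, 36.8% at *lin-54*, 42.3% at *efl-1*, 46.3% at *lin-9* and 46.8% at *lin-53*. The faint regions near *lin-37* and *lin-52* had higher values, 47.3% and 48.8%. The nuclear thresholded peaks had a median of 38.8% and the other pooled regions near gene starts one of 36.3%.

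**Figure D4:**
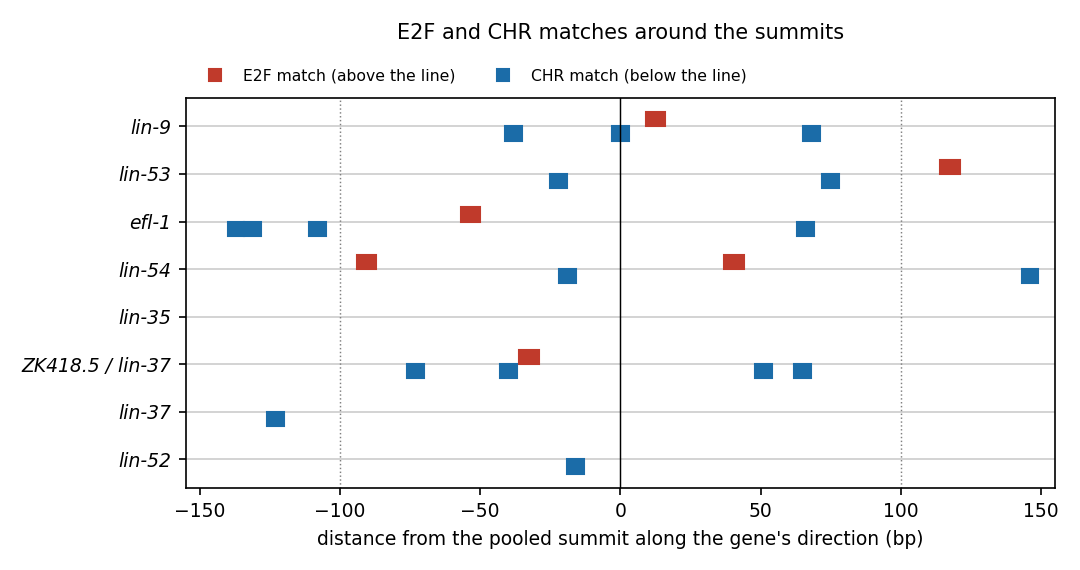
E2F matches (red, above each line) and CHR matches (blue, below) within 150 bp of the pooled summit (horizontal, bp along the gene's direction) at the 7 subunit genes with a pooled region and at the thresholded peak upstream of *ZK418.5* and *lin-37*; dotted lines mark 100 bp. The *lin-35* line is empty, and close pairs are seen at *lin-9* and at *ZK418.5*.

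The other genes of the pathway were read from a fixed list. In the list of 18 genes that are E2F relatives, partners or regulators of the pocket protein, or other synMuv B genes, 3 had a thresholded peak within 1000 bp (2.53% of all genes did), and 14 had a pooled candidate region (53% of all genes did). The count of 3 fell to 1 when each peak went only to its nearest gene, and to 0 with a limit of 250 bp or with the 198 strongest peaks. With the 396 highest ranks of 1 replicate in place of the thresholded list, it was 1 without replicate 3 and 2 without replicate 2. Neither E2F relative was bound: *efl-2* had no region in any list, and the best region of *efl-3* ranked 6208 in the pooled list, 1141 in replicate 2 and, at another place near the start, 22014 in replicate 3. Of the partners, *rba-1* had no region and the histone deacetylase gene *hda-1* ranked 28405 in the pooled list, 5078 in replicate 3 and had no region in replicate 2.

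Among the listed genes for cyclins, cyclin-dependent kinases and their inhibitors, 1 of 6 was bound. This was *cye-1*, which encodes cyclin E, with a peak on chromosome I (6780090 to 6780385), 561 bp upstream of its start. The signal was 24.1 in replicate 2 (rank 179), 20.1 in replicate 3 (rank 271) and 40.3 in the pooled list (rank 238), close to the *lin-35* peak in both libraries, and both motifs were present at its summit. The start of *pqn-21* was also within 1000 bp and nearer to the summit, so the peak cannot be assigned to a single gene. *cdk-2*, the partner kinase, ranked 1100 in the pooled list but 12807 in replicate 2 and 3819 in replicate 3. *cyd-1*, *cdk-4* and *cki-2* ranked 10624 or lower in the pooled list, and *cki-1*, an inhibitor of cyclin-dependent kinases, had no region in any list.

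Of the 8 other synMuv B genes, 2 had a thresholded peak. *hpl-2*, encoding a heterochromatin protein, ranked 235 in the pooled list and 87 in replicate 3, and had no region in replicate 2. The pooled summit lay 399 bp downstream of the start. Another thresholded peak lay upstream within 1000 bp of the start, with its summit at 10755807 on chromosome III. It ranked 251 in the pooled list and 120 in replicate 3, and replicate 2 had no region there. At 3716 bp upstream of *hpl-2*, a peak near the start of *K01G5.10*, the first gene of the same-strand run, ranked 15 in the pooled list. *lin-61* ranked 394 in the pooled list, 522 in replicate 2 and 660 in replicate 3. Its pooled summit lay 441 bp upstream of *lin-61* and nearer to the start of *bub-1*, so the peak cannot be assigned to a single gene. *lin-36* lay just below the threshold, with a signal of 25.8 (rank 516) in the pooled list and ranks of 2817 and 1588 in replicates 2 and 3. *lin-13*, *lin-15B*, *met-2* and *tam-1* ranked between 4906 and 24367 in the pooled list, and *lin-65* had a region in replicate 2 only (rank 13674).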

How the data were processed

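Candidate regions were deposited for each library and for both pooled, with a thresholded list of 396 regions made from them by irreproducible discovery rate, per the text deposited with the samples. Each candidate list also derives from 1 further file of unstated kind, and the labels name a possible control experiment. The sources used here state no caller, threshold or read depth, so no counting interval could be made. Each region carries the authors' enrichment signal, whose scale is not given, and a deposited −log10 q-value by column order, equal at all thresholded peaks (3.22). Signal was used only to rank regions within a list (rank 1 is the strongest). The pooled list holds both libraries and is not another replicate. Lists on ce11 were used, with 20291 regions in replicate 2 and 30000 in replicate 3 and in the pool. The ce10 lists were not used. Coordinates are 1-based, and the best region of a gene is the one with the highest signal. All region ends lay within the RefSeq chromosomes of WBcel235.

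The 8 genes, the list of 18 pathway genes, the motifs and the distances were chosen with earlier results of these data known. Named genes were the 8, genes with a start within 1000 bp of their best pooled summit, the pathway list, and the nearest gene of the most similar peak. *ZK418.5*, *ZK632.9*, *unc-32*, *T23G7.2*, *C32F10.4* and *K01G5.10* were named after their values were seen, as upstream or overlapping genes. *ZK795.2* and *smc-6* were named as other starts near the most similar peaks. No tests were made. Distance, neighbour and motif steps were tested on simulated data and recovered all planted cases. Alternatives covered distances, starts, peak sets, single replicates, windows and motif words. Python 3.11.15, numpy 2.4.6, pandas 2.3.3 and matplotlib 3.10.9 were used.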

Additional observations from a re-analysis of the deposited data

How the results depend on the processing

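The 5 bound subunit genes remained 5 with a distance of 500 bp, with the starts of any transcript and with the 1000 highest-ranked pooled regions. With the 198 strongest peaks the count was 4, because the *lin-35* peak ranked 219. The count was 3 with a distance of 250 bp and 3 when each peak went only to its nearest gene, both without *lin-53* and *lin-54*. It was 6 at 2000 bp, and 4 of 7 without *lin-35*, which the transgene carries (an alternative added after the data were seen). With the 396 highest ranks of a single replicate in place of the thresholded list, it was 4 to 5: *lin-54* was not bound without replicate 2. At 250 bp, 4 genes had a pooled region and 3 had one in both replicate lists. The pathway genes with a peak numbered 0 at 250 bp, 1 with the nearest gene only, 0 with the 198 strongest peaks, and 1 to 2 with a single replicate. E2F matches were found at 5 genes with the looser word, and CHR matches at 0 with TTCGAA alone. With a single replicate 3 genes had an E2F match and 4 to 5 a CHR match, 7 had a candidate region, and 2 summits lay inside *lin-35*. The ranks of *lin-53* and *lin-54* without replicate 2 and of *efl-1* without replicate 3 moved by over 1.5 times, to 252, 788 and 173. Of 65 alternative values, 52 stayed within 1.5 times. No paired analysis was possible because there is a single group. The unknown read depth limits any statement on weak regions: a missing region may lie below the length of the list.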
